A study of Saccharomyces cerevisiae with 7 samples.

Results

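The genes described here encode regulators of chromosome segregation in the meiotic divisions of budding yeast (Saccharomyces cerevisiae): the monopolin genes MAM1, CSM1, LRS4 and HRR25, the shugoshin gene SGO1, SPO13, the polo kinase gene CDC5 and SPO12. They were chosen by their systematic names, and these are 8 of the 6141 rows of the deposited table. Values were present for 7 of the 8 and for 5666 rows in all. LRS4 (YDR439W) had a row without a value and is not analysed here, so the monopolin complex is described by the other three of its genes.

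Cells were collected by filtration at 1, 2, 3, 4, 5, 6 and 8 h of meiosis. Poly(A)+ RNA of each time point was labelled red (Cy5) and compared on a 2-colour array with a green (Cy3) mix of messenger RNA pooled over the meiotic time points. Each deposited value is the log2 of that ratio after division by the same ratio at 0 h, so 0 stands for the level at 0 h and 1 for a level 2-fold above it. The series names 3 independent cultures, yet the table has 1 column per time point, so no single value has a replicate error and no spread between cultures can be given. The groups are therefore the 7 hours, set against 0 h, and the labels name no other genotype or treatment. Where 7 values of a gene are given, they run in the order 1, 2, 3, 4, 5, 6 and 8 h. The sources used here give neither the strain and medium nor the way the cultures were combined. Whole cultures were measured, so more cells expressing a gene and more RNA per expressing cell cannot be told apart.

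In meiosis a single round of DNA replication is followed by a pair of divisions. At the first, sister chromatids must travel together while homologous chromosomes part. Monopolin joins the kinetochores of sister chromatids so that both attach to the same pole: Mam1 is its meiosis-specific subunit, Csm1 and Lrs4 also work in the nucleolus of growing cells, and Hrr25 is a casein kinase 1 that binds Mam1. Shugoshin (Sgo1) recruits the phosphatase PP2A to centromeres and shields the meiotic cohesin subunit Rec8 from separase there, so that sisters stay joined until the second division. Spo13 is a meiosis-specific regulator that binds polo kinase and is needed for joint movement of sisters and for the protection of centromeric cohesion. Cdc5, the polo kinase, acts in the exit from prophase, in the loading of monopolin and in the release of the phosphatase Cdc14, a step in which Spo12 also takes part.

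All 7 measured genes stood at least 2-fold above 0 h at 2 or more consecutive time points, here called induced. Over all genes this size rule was met by 21.8%. In a trend test over the course (limma, a parabola in time fitted to each gene, Benjamini-Hochberg adjustment over all genes at 0.05) all 7 were called with a higher fitted level at 8 h than at 1 h, as were 23.3% of all genes. None of the 7 was called with a lower level, against 25.2% of all genes. With 1 column per hour, this test sets the part of the course that the curve explains against the scatter of the hours around it. Differences between cultures do not enter it, and for a step-like course that scatter includes the misfit of the curve. A call rests on the slope and the bend of the curve together, and its direction is only the sign of the fitted difference. For each of the 7 genes but SPO13 the fitted change exceeded the observed difference between 1 h and 8 h. From 1 h to 8 h the medians of the 7 genes were -0.05, 0.62, 1.04, 1.98, 3.56, 3.34 and 3.14, while the median of all genes lay between -0.04 and 0.01. SPO13 alone was above a log2 ratio of 1 at 1 h. At 2 h, 2 genes stood at 1 or more, followed by 4 genes at 3 h, 6 at 4 h and all 7 from 5 h on.

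**Figure D1:**
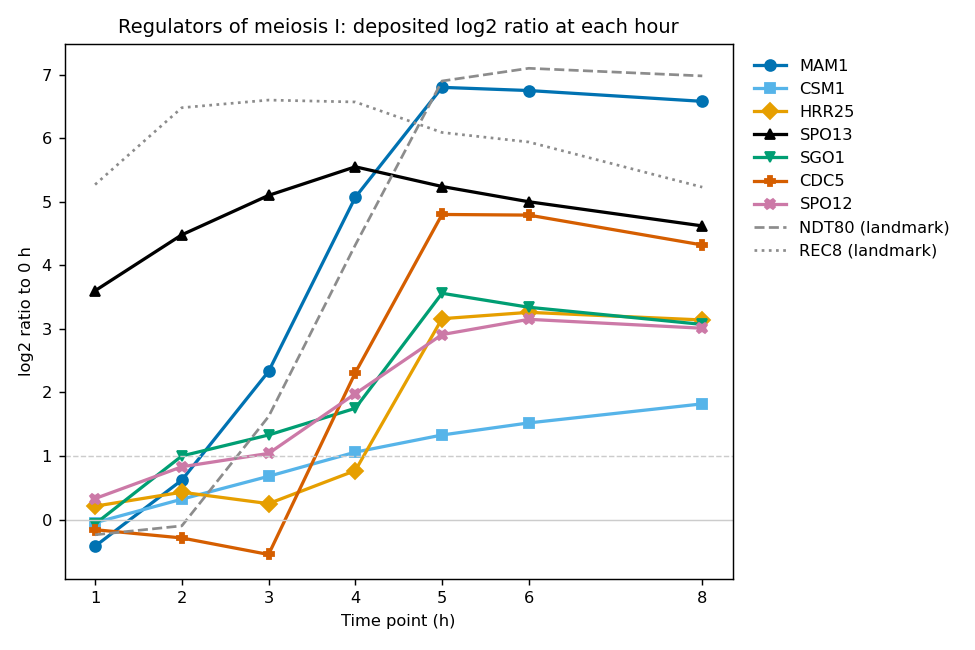
The deposited log2 ratio to 0 h (vertical axis) is plotted against the time point in hours (horizontal axis) for the 7 measured genes, with NDT80 and REC8 as grey landmarks and a dashed line at the log2 ratio of 1. Each point is 1 deposited column without a replicate error. SPO13 is already at 3.60 at 1 h, MAM1 climbs with NDT80 between 2 h and 5 h, CDC5 leaves its starting level after 3 h, and HRR25 after 4 h.

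REC8, DMC1, NDT80 and DIT1, landmark genes of meiotic progress, followed the order of a culture passing through meiosis. All 9 landmark genes used here were induced, against 21.8% of all genes. They were chosen as known genes of meiosis, so this count only checks the label of the cultures. REC8 stood at 5.27 at 1 h, and DMC1, the meiotic recombinase gene, at 5.23. NDT80, the activator of the middle genes, had values of -0.10, 1.62, 4.32 and 6.90 at 2, 3, 4 and 5 h. DIT1, a gene of the outer spore wall, came last, with 1.27 at 5 h and 7.73 at 8 h. Other landmarks did not follow the stages assigned to them here, which are labels and not results. A mismatch can lie in the label as well as in the course, and this was not tested. IME2, a gene of meiotic entry, was highest at 6 h (6.61). SPS4, taken as a late gene, stood at 5.44 at 4 h, when SMK1, taken as a middle gene, stood at 1.81.

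Among the monopolin genes the meiosis-specific subunit gene had by far the widest course. MAM1 (YER106W) had log2 ratios, from 1 h to 8 h, of -0.42, 0.62, 2.33, 5.07, 6.80, 6.75 and 6.58. It began below its 0 h level, was higher at each hour than at the hour before up to 5 h, and then stayed within 0.22 of its highest value, which is 111-fold above 0 h. Its fitted change between 1 h and 8 h was 7.98 ± 0.78 (SE of the fitted curve, adjusted p = 0.0036 by limma). The observed value at 8 h was 7.0 above that at 1 h. Of all genes, 23.7% stood lower than MAM1 at 1 h, 82.7% at 2 h and 98.1% at 3 h.

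CSM1 (YCR086W) changed slowly and evenly. From 1 h to 8 h its log2 ratios were -0.05, 0.32, 0.68, 1.06, 1.33, 1.52 and 1.82. Every hour was higher than the one before, no step exceeded 0.38, and the highest value, 3.53-fold above 0 h, was the last. The fitted change was 1.90 ± 0.13 (SE, adjusted p = 0.00249 by limma). The scatter of CSM1 around its curve, a residual SD of 0.0303, was the smallest of the 7 genes, against 0.812 for MAM1.

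HRR25 (YPL204W) behaved as a single step. From 1 h to 8 h its log2 ratios were 0.21, 0.43, 0.25, 0.77, 3.16, 3.26 and 3.14. The first 4 hours lay below a log2 ratio of 1 and the last 3 within 0.12 of each other. The value at 5 h exceeded that at 4 h by 2.39, or 5.24-fold, which is 78.4% of the whole span of the gene. A step at least as high over the same interval was seen in 2.17% of all genes. The fitted change was 3.78 ± 0.83 (SE, adjusted p = 0.0279 by limma), and a smooth curve describes such a step poorly (residual SD 0.876). The observed value at 8 h was 2.93 above that at 1 h. Without the 2 h column the adjusted p was 0.0777, without the 6 h column 0.0681, and without variance moderation 0.103. Hrr25 also serves growing cells in DNA repair, ribosome maturation and vesicle transport.

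SPO13 (YHR014W) was the early gene of the set and was highest at 4 h, before the other six. In hour order, the log2 ratios were 3.60, 4.48, 5.10, 5.55, 5.24, 5.00 and 4.62. The highest value was that of 4 h, 46.9-fold above 0 h, and the value of 8 h was lower by 0.93 than the highest. Relative to 1 h in place of 0 h, SPO13 reached only 1.95 at 4 h and 1.02 at 8 h, so on the log2 scale most of its ratio was already in place at 1 h. SPO13 stood above 99.7% of all genes at 1 h and above 97.9% at 8 h. The fitted change of 0.76 ± 0.26 (SE, adjusted p = 0.00976 by limma) belongs to an arch and not to a steady climb. With a linear term alone the adjusted p was 0.33. With columns scaled to the same SD the change turned to -2.36 and did not pass (adjusted p = 0.118). Without the 1 h column the call was also lost (adjusted p = 0.0664), and the fitted change, which then runs between 2 h and 8 h, was -0.09.

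SGO1 (YOR073W) had a course in 2 stages. Its log2 ratios, from 1 h to 8 h, were -0.07, 1.00, 1.33, 1.75, 3.56, 3.34 and 3.07. The value at 2 h was 1.07 above that at 1 h, and the value at 5 h was 1.81 above that at 4 h, with smaller steps between. In the intervals from 1 h to 2 h and from 4 h to 5 h, 4.15% and 3.99% of all genes had a step at least as high. After its highest value at 5 h (11.8-fold above 0 h) SGO1 was lower by 0.49 at 8 h. The fitted change was 3.44 ± 0.51 (SE, adjusted p = 0.00795 by limma). Rec8, the protein that shugoshin shields, is encoded by a gene that was high from 1 h on (5.27). SGO1 stood at 1.00 at 2 h and was highest at 5 h, when REC8 stood at 6.09 after 6.60 at 3 h. Both are ratios to the gene's own 0 h level, so their heights do not give an order of arrival.

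CDC5 (YMR001C) stood under its 0 h level at 1, 2 and 3 h and then stepped up over 2 consecutive intervals. From 1 h to 8 h its log2 ratios were -0.16, -0.29, -0.55, 2.31, 4.80, 4.79 and 4.32. At 3 h CDC5 was above 19.9% of all genes, and at 4 h above 96.8%. The step to 4 h was 2.86 (7.26-fold) and the step to 5 h 2.49 (5.62-fold), matched or exceeded by 0.424% and 2.01% of all genes. The fitted change was 6.19 ± 1.36 (SE, adjusted p = 0.0254 by limma), with the largest scatter around the curve among the 7 genes (residual SD 1.44). The curve overshot, since the observed value at 8 h was 4.48 above that at 1 h. The trend call of CDC5 was lost without the 2 h, 4 h or 6 h column (adjusted p = 0.0776, 0.0526 and 0.068) and without variance moderation (0.0987).

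SPO12 (YHR152W) rose gradually. In hour order its log2 ratios were 0.33, 0.83, 1.04, 1.98, 2.91, 3.15 and 3.01. Its steps to 4 h and to 5 h were alike (0.94 and 0.93), and the last 3 values lay within 0.24 of each other. The fitted change was 3.11 ± 0.38 (SE, adjusted p = 0.00568 by limma). BNS1, the paralog of SPO12 and like it a factor in Cdc14 release, had log2 ratios, from 1 h to 8 h, of 0.07, -0.29, -0.60, -0.38, 0.71, 0.59 and 0.25. The trend of BNS1 was not called (adjusted p = 0.428 by limma). The difference between the paralogs was not tested.

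The 7 genes took their largest steps in different intervals. Between 1 h and 2 h the log2 ratio was higher by 1 or more in 2 of the 7 (MAM1 and SGO1), against 4.77% of all genes. Between 2 h and 3 h this held for MAM1 alone, against 0.6% of all genes, and only 8 of the 5666 genes, MAM1 included, had a step as high as its 1.71. Between 3 h and 4 h it held for MAM1 (2.74) and CDC5 (2.86), against 1.94% of all genes. Between 4 h and 5 h it held for 4 of the 7 (MAM1, HRR25, SGO1 and CDC5), against 9.35% of all genes. After 5 h no step of the 7 genes reached 1 in either direction. Over all genes 0.159% had such a step upward and 0% downward between 5 h and 6 h, and 1.66% upward and 0.0529% downward between 6 h and 8 h.

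**Figure D2:**
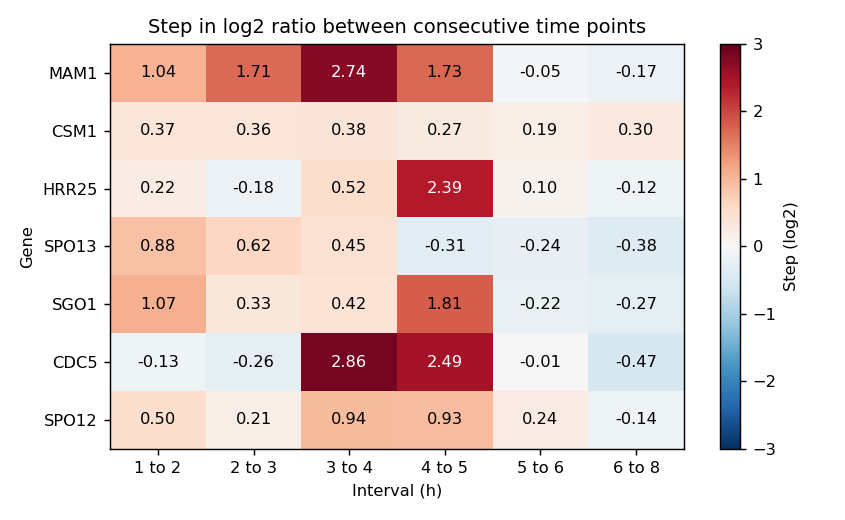
Each cell gives the difference in log2 ratio between consecutive time points, for 1 gene per row and 1 interval (h) per column, with red for a higher and blue for a lower later value. The largest single steps are 2.86 for CDC5 and 2.74 for MAM1 between 3 h and 4 h and 2.49 for CDC5 and 2.39 for HRR25 between 4 h and 5 h, while CSM1 has no step above 0.38.

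The hour at which a gene passed the midpoint between its lowest and highest value, read by straight lines between time points, put the genes in the order SPO13 (2.15 h), MAM1 (3.31 h), CSM1 (3.54 h), SPO12 (3.74 h), CDC5 (3.94 h), SGO1 (3.99 h) and HRR25 (4.40 h). On the same measure NDT80 passed its midpoint at 3.67 h. Lowest and highest were taken over the 7 hours, without 0 h. SPO13 already stood at 3.60 at 1 h, so its midpoint dates only the part of its rise after 1 h. It is not comparable with the midpoints of genes that began near their 0 h level. CDC5 and SGO1 lay 0.05 h apart with 1 h between samples, so their order is not resolved, nor is that of other close neighbours. MAM1 had its log2 ratio of 2.33 at 3 h, an hour at which CDC5 was at -0.55 and HRR25 at 0.25. These are ratios to each gene's own 0 h level and do not order the genes by amount of RNA.

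The spread of the columns differed along the course and bears on these timings. At 3, 4 and 5 h the SD over all genes was 0.907, 1.05 and 1.48. When each column was scaled to the same SD, the step between 4 h and 5 h was 1.63 for HRR25, 1.21 for CDC5, 0.85 for SGO1 and 0.08 for SPO12. For MAM1 and CSM1 it turned to -0.30 and -0.14, and that of SPO13 became -2.07. Highest values moved to 4 h for MAM1 and to 3 h for SPO13, and the other five kept their hour. The midpoints moved to 1.28 h for SPO13, 2.04 h for SGO1, 2.54 h for CSM1, 2.79 h for MAM1, 3.12 h for SPO12, 3.68 h for CDC5 and 4.34 h for HRR25. By midpoint, with the same limit for SPO13, that gene stayed the earliest and HRR25 the latest on the scaled columns. The order of those between them was not the same. The step of CDC5 between 3 h and 4 h was 3.30 on the scaled columns.

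**Figure D3:**
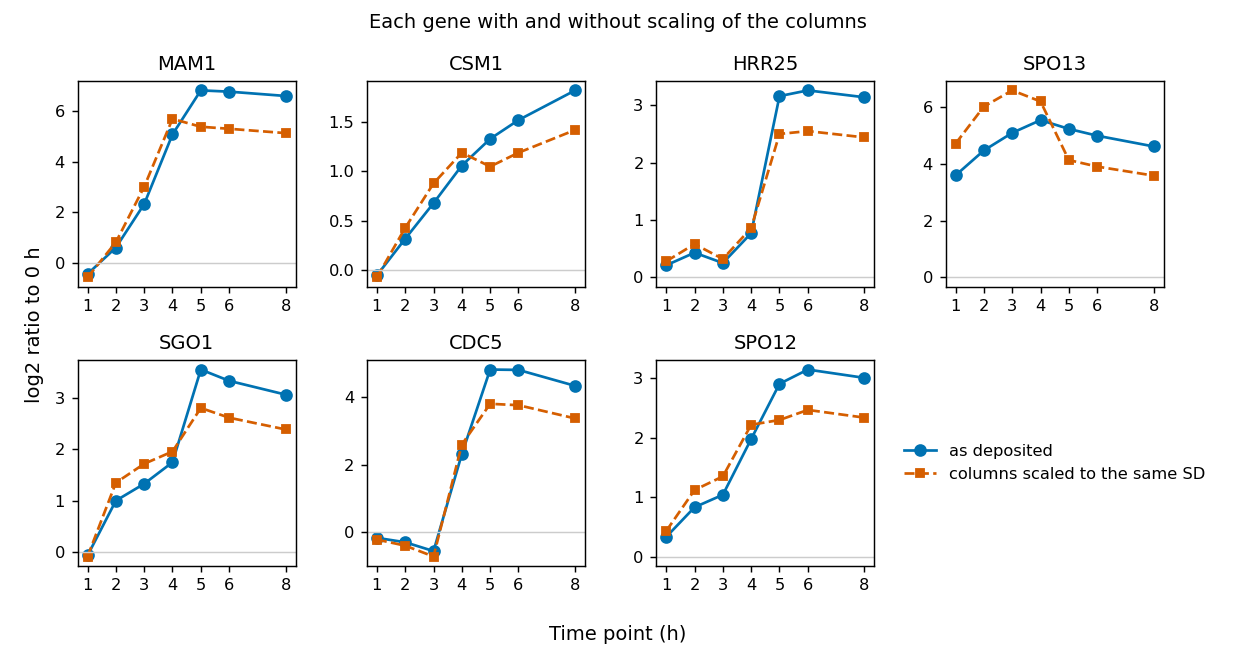
For each gene the log2 ratio to 0 h is plotted against the time point (h), as deposited (blue circles) and after every column was scaled to the same SD over all genes (orange squares). HRR25 and CDC5 keep their steps between 4 h and 5 h at 1.63 and 1.21 after scaling, and MAM1 levels off from 4 h, with -0.30 over that interval.

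Over the 7 hours the genes fell into a large group of similar shape, with SPO13 apart from it. As a description over 7 time points that share the division by 0 h and the same cultures, Pearson's r was 0.9 or more in 12 of the 21 pairs, and the median was 0.935. The share of all gene pairs with such r was not computed, so these values are not shown to be particular to the set. The closest pair was MAM1 and SPO12 (0.983), followed by SGO1 and SPO12 (0.975) and by CDC5 and SPO12 (0.971). HRR25 and CDC5 reached 0.96, while MAM1 and HRR25, which act in the same complex, had 0.883. SPO13 had no r above 0.676 with another of the genes, and its lowest was 0.306 with HRR25. SGO1 and SPO12 were close in height as well as shape, with a root mean square difference of 0.336.

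Among all genes with a standard name, those with the most similar course were found by Pearson's r over the 7 time points. For MAM1 they were SPO23, YNG2 and PFD1, of which SPO23 (r = 0.9976) also came near in height, at 6.00 at 5 h. For CSM1 they were SPN1, NMD2 and HIT1, and for HRR25 RNH70, MDM30 and GPI8. MDM30 (0.9994), an F-box protein gene, had 0.66 at 4 h and 2.78 at 5 h. For SPO13 they were DDE1, PGA3 and MSH4. MSH4 (0.9919), whose product stabilises crossover intermediates, had values of 3.54 at 1 h and 5.85 at 4 h, close to those of SPO13. For SGO1 they were NDC80 (0.9928), an outer kinetochore gene, MRN1 and SIL1, and for CDC5 SPO77, COX23 and SUT1. For SPO12 they were SPO74, TEP1 and SPR28, with SPO74 (0.9974), a gene of the meiotic spindle pole body, reaching 8.70 at 8 h. Such shapes were common for some genes: 255 named genes had r of 0.98 or more with HRR25, 79 with CDC5, and 14 with SPO13.

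The other genes of these pathways were followed through 8 companion lists. They hold 43 genes besides the 8, among them REC8, NDT80 and BNS1 from above, and 41 of the 43 had values. The size rule called 21 of the 41 induced (51.2%) and 2 repressed, meaning a log2 ratio of -1 or less at 2 or more consecutive hours. Over all genes 21.8% were induced and 16.4% repressed. The trend test called 14 (34.1%) with a higher and 5 (12.2%) with a lower fitted level at 8 h than at 1 h, against 23.3% and 25.2% of all genes. These directions are signs of the fitted difference and were not tested on their own. That difference was not far from its SE for IPL1 (0.14 ± 0.23), CDC7 (0.22 ± 0.15), YCK1 (-0.27 ± 0.18) and REC8 (-0.56 ± 0.36). At 1, 4, 5 and 8 h the medians of the 41 genes were 0.09, 0.34, 0.89 and 0.63, and the medians at 4, 5 and 8 h lay under those of the 7 genes.

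**Figure D4:**
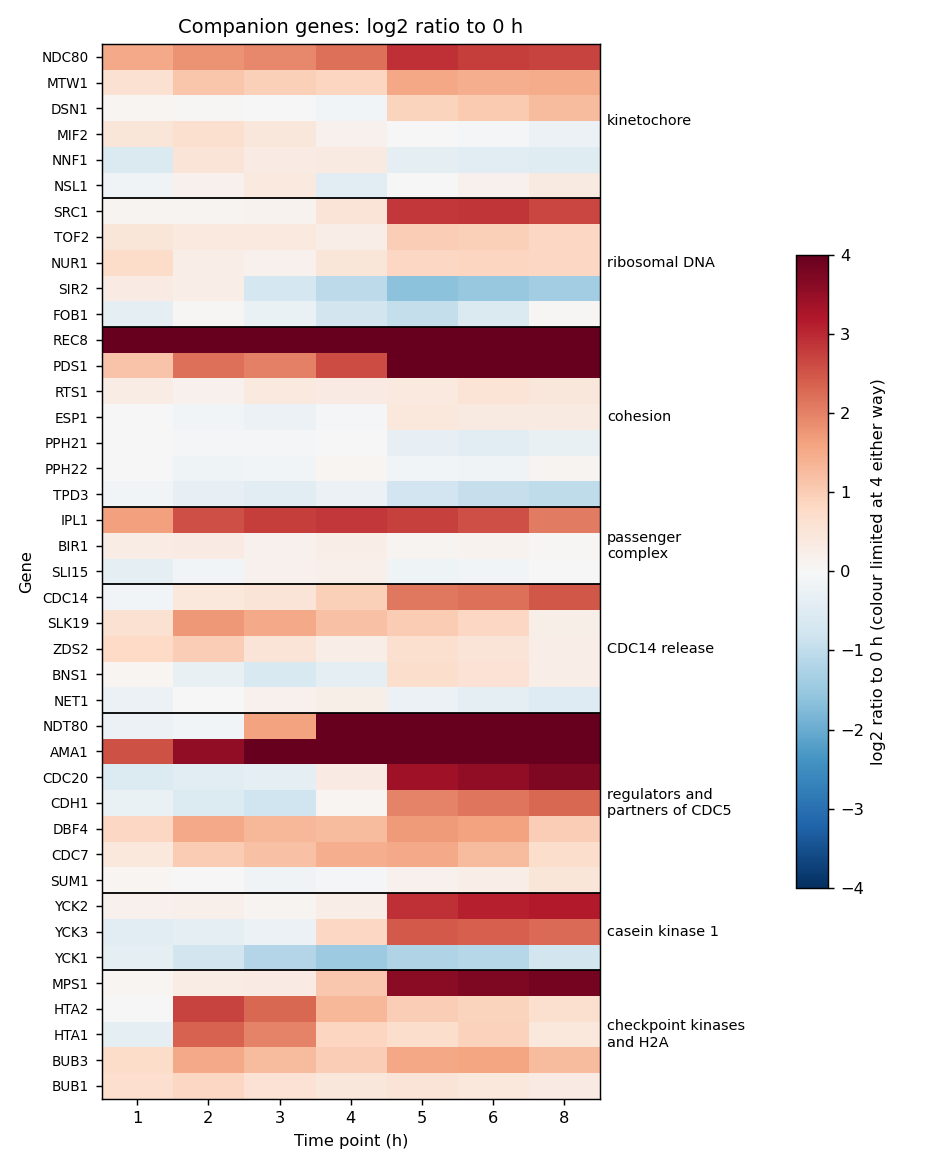
Rows are the 41 companion genes with values, grouped by list and ordered by their level held over 2 hours, and columns are the 7 time points (h), with red for a log2 ratio above 0 h and blue for one below it; colours are limited at 4 either way. REC8 is dark in every column, CDC20, YCK2, SRC1 and MPS1 darken at 5 h, and SIR2 and YCK1 are the genes in blue that met the rule for repression.

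At the kinetochore, where monopolin binds, the subunits went different ways. NDC80 rose (1.52 at 1 h, 2.93 at 5 h, adjusted p = 0.0146 by limma), as did DSN1, whose product is the receptor of Csm1 (0.09 at 1 h, 1.28 at 8 h, adjusted p = 0.0309). MIF2, the gene of the centromeric CENP-C protein, fell to -0.22 at 8 h, against 0.49 at 1 h (adjusted p = 0.0205). MTW1 was induced at up to 1.56 without passing the trend test, and NNF1 and NSL1 met neither rule. Of the 6 genes 3 were induced and 0 repressed, against 21.8% and 16.4% of all genes. With scaled columns the change of NDC80 turned to -0.11 (adjusted p = 0.266), and without moderation its adjusted p was 0.0545. The call of DSN1 was lost with scaled columns, without moderation and without the 2 h, 3 h or 6 h column (adjusted p between 0.0584 and 0.0969), and that of MIF2 without 2 h (0.0595) or 6 h (0.0683).

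Of the 5 partners of Csm1 and Lrs4 at the ribosomal DNA and nuclear envelope, SRC1 (also called HEH1), an inner nuclear membrane gene, was induced. SIR2, the silencing deacetylase gene, was repressed. These counts, 1 of 5 each, lie near the shares of all genes, 21.8% induced and 16.4% repressed. SRC1 rose, with 0.53 at 4 h and 2.83 at 5 h (adjusted p = 0.0329 by limma), and its course had r = 0.998 with HRR25. SIR2 fell to -1.63 at 5 h, against 0.34 at 1 h (adjusted p = 0.00606 by limma). TOF2, NUR1 and FOB1 met neither rule. The call of SRC1 was lost without moderation and without 2 h, 3 h or 6 h (adjusted p between 0.0516 and 0.113).

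Among 7 genes of cohesion protection and cleavage the 2 induced ones were REC8 and PDS1, against 21.8% of all genes. PDS1, the securin gene that restrains separase, rose (1.13 at 1 h, 4.42 at 5 h, adjusted p = 0.0106 by limma), and its r with SGO1 was 0.983. None of the 4 PP2A genes, whose products work with shugoshin, was induced. With 21.8% of all genes induced, 4 genes are too few to set them apart. RTS1, the regulatory subunit gene, stayed between 0.18 and 0.55, PPH21 and PPH22, near-identical catalytic subunit genes whose separate values are uncertain, between -0.45 and 0.11, and TPD3, the scaffold gene, fell to -1.03 at 8 h (adjusted p = 0.0279 by limma). ESP1, the separase gene, ranged from -0.24 to 0.43 and met neither rule. The call of TPD3 was lost in 7 of 15 alternatives, namely with scaled columns (adjusted p = 0.143), without moderation (0.0675) and without 1 h, 2 h, 3 h, 6 h or 8 h (0.0555 to 0.0799). That of PDS1 was lost without moderation (0.0541). REC8 was called with a fitted change of -0.56 (adjusted p = 0.0371 by limma). This call too was lost in 7 of 15 alternatives, among them a linear term alone (0.541) and no moderation (0.109).

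In the chromosomal passenger complex, which corrects kinetochore attachments, IPL1 (the Aurora kinase gene) was induced throughout, with 1.65 at 1 h and 2.84 at 4 h, in an arch like that of SPO13 (r = 0.913). The trend test called it (adjusted p = 0.0195 by limma), and with scaled columns the change between 1 h and 8 h turned to -1.42 and was not called (0.117), as was the case with a linear term alone (0.779) and without moderation (0.06). SLI15 and BIR1 stayed between -0.38 and 0.34 and met neither rule. NBL1 is not analysed here for want of a value.

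In the list on Cdc14 release 2 of 5 genes were induced, against 21.8% of all genes. CDC14 rose (-0.11 at 1 h, 2.47 at 8 h, adjusted p = 0.00606 by limma), while SLK19 was highest at 2 h (1.74) and ended at 0.24 without passing the test (adjusted p = 0.0733). NET1, the gene of the nucleolar anchor of Cdc14, ranged from -0.53 to 0.23, and BNS1 and ZDS2 also met neither rule.

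Of the 7 regulators and partners of CDC5, 6 were induced and 5 passed the trend test with a positive fitted change, against 21.8% and 23.3% of all genes. NDT80, which activates CDC5, had r = 0.972 with CDC5 and 0.989 with MAM1, and by root mean square difference NDT80 was the named gene nearest to MAM1 (0.522). CDC20 and CDH1, activators of the anaphase-promoting complex, rose (adjusted p = 0.0182 and 0.0289 by limma). At 5 h CDC20 had 3.39 and CDH1 1.98, against 0.33 and 0.09 at 4 h, so both passed a log2 ratio of 1 an hour after CDC5 did. AMA1, the meiotic activator, reached 7.54 at 8 h. CDC7 and DBF4, kinase and regulatory subunit of a complex that phosphorylates monopolin, were induced at up to 1.50 and 1.70, and SUM1, the repressor gene, was not (-0.15 to 0.49). The calls of CDC20 and CDH1 were lost without moderation (adjusted p = 0.0791 and 0.104) and without 2 h (0.0586 and 0.083), and that of CDH1 also without 6 h (0.0677). The call of CDC7, with a fitted change of 0.22, was lost with a linear term alone (adjusted p = 0.659 by limma) and with scaled columns (0.0569).

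The casein kinase 1 genes besides HRR25 split. YCK2 took the same late step as HRR25, at 0.27 at 4 h and 2.93 at 5 h (r = 0.995 with HRR25, root mean square difference 0.242). YCK3 had 0.82 at 4 h and 2.44 at 5 h, and both genes rose (adjusted p = 0.0317 and 0.016 by limma). YCK1, a close paralog of YCK2, was repressed, with its lowest value of -1.46 at 4 h. Without moderation and without 2 h the calls of YCK2 and YCK3 were lost (adjusted p between 0.0537 and 0.111), as was that of YCK2 without 3 h (0.054) or 6 h (0.0713).

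In the list of spindle checkpoint kinases and histone H2A, through whose phosphorylation by Bub1 shugoshin finds the centromere, MPS1 rose (1.09 at 4 h, 3.61 at 5 h, adjusted p = 0.0164 by limma). This call was lost without moderation (0.0729) and without 2 h (0.0537). BUB1 itself stayed between 0.34 and 0.84. BUB3, HTA1 and HTA2 were induced without passing the trend test. The histone genes HTA1 and HTA2, near-identical copies whose separate values are uncertain, were highest at 2 h (2.36 and 2.71). Their r with SGO1 over the 7 hours was -0.0484 and -0.153.

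The genes next to each of the 8 on the chromosome, by the order of the R64 annotation, were a mixed set. Of 16 neighbours 12 had values, and 6 of these were induced and 0 repressed, against 21.8% and 16.4% of all genes. MIP6, an RNA-binding protein gene beside SPO13, had 0.87 at 3 h and 7.46 at 5 h, a middle course unlike that of SPO13, and ARD1 on the other side met neither rule (-0.47 to 0.19). SPO12 had 0.33 at 1 h and 1.98 at 4 h, where SPO16, a synapsis gene beside it, had 2.12 and 3.95. The highest value of MAM1 was 6.80, against 1.24 and 1.67 for NUP157 and GLE2, the nuclear pore genes on either side of it. The neighbours of HRR25 with values, PGC1 and TPK2, showed no step like its own between 4 h and 5 h, with 0.23 and 0.52 at 5 h.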

How the data were processed

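The authors deposited 1 table of log2 ratios, each the Cy5/Cy3 ratio of a time point to a meiotic RNA mix divided by the same ratio at 0 h, per the series design. The sources used here give no background correction, array normalization, filter or rule for merging cultures. No spot intensities were used, and precision is limited by how few arrays there are. Values were used as deposited and named through RefSeq's R64 table, in which all 8 symbols matched.

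The trend test (limma 3.58.1, R 4.3.3) left 4 residual degrees of freedom per gene, with 2.354 added by moderation. An error at 0 h enters all 7 values of a gene equally and falls in the untested intercept. On simulated data with 5666 genes the test recovered 34.3% of linear changes of 1, 74.6% of 2 and 87.9% of 3 (log2), with 5.07% of its calls false. Only 67, 67 and 66 genes were changed there, all linearly, with independent noise at each hour. In the data 2747 genes were called and courses include steps and arches, so these rates do not carry over to them.

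The genes and lists were chosen with earlier results of these data known. Named genes are the 8, the 3 most alike by Pearson's r for each (among genes with standard names), and companions called or at the ends of their list. Neighbouring genes were added after values were seen. Alternatives were another size rule, reference hour, curve, time axis, moderation, centring, scaling, gene set, likeness measure and each hour left out.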

Additional observations from a re-analysis of the deposited data

How the results depend on the processing

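The count of 7 induced genes out of 7 was the same under all 6 alternatives to the size rule. The trend test called 5 to 7 of the 7 with 1 time point left out, 6 with a linear term or with scaled columns, and 5 without variance moderation. MAM1, CSM1, SGO1 and SPO12 passed in all 15 alternatives run, with adjusted p of at most 0.0441, HRR25 in 12, CDC5 in 11 and SPO13 in 12. Among the listed genes called by the trend test, changes that turned sign with scaled columns were those of SPO13 (-2.36), NDC80 (-0.11), IPL1 (-1.42), CDC7 (-0.37), YCK1 (0.26), IME2 (-1.94) and SPO11 (-0.70). Without 1 h or 8 h the change runs between 2 h and 8 h or between 1 h and 6 h, another quantity than the change between 1 h and 8 h. With each hour left out in turn, it took both signs among the called genes for SPO13 (-0.09 to 1.39), IPL1 (-0.52 to 0.74), CDC7 (-0.29 to 0.85), YCK1 (-0.76 to 0.15) and REC8 (-1.36 to 0.31), in each case through these end hours. Among genes called with a cubic curve and not with the parabola, the sign turned for NNF1 (0.04), FOB1 (0.37) and HTA2 (0.40). Signs of genes that passed in neither fit are not listed. Scaling, chosen for the steps after values were seen, also turned the steps of MAM1 (-0.30) and CSM1 (-0.14) between 4 h and 5 h and of SPO13 (-0.38) between 3 h and 4 h. The cause was not tested. Of the 41 companions, 19 were called by the trend test, against 7 without moderation, 12 with scaled columns and 9 to 22 with an hour left out (9 without 2 h, 12 without 6 h). Repressed companions numbered 1, in place of 2, at a threshold of 1.5 and with the ratio to 1 h. Over all genes, induced and repressed numbered 1236 and 932, against 737 and 408 at a threshold of 1.5, with 604 repressed relative to 1 h. Trend calls numbered 2747, against 1459 without moderation and 1405 to 2640 with an hour left out (1488 without 2 h, 1405 without 6 h). Of the 21 names given as most alike, Spearman's rho kept 0 and the root mean square difference 3. With 7 time points rho takes few distinct values, and genes of equal rho were taken by name. The count of 0 therefore cannot show whether the likeness held by rank. No paired analysis was possible because each time point has 1 column and the labels carry no replicate numbers.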
